A study of Homo sapiens with 2 samples.

Results

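Nuclear pore and nuclear transport genes were followed by RNA-seq in A549, an established line of human lung adenocarcinoma cells. The genes were found by name in the deposited table. Single-name loci called NUP plus a digit, NUPL, IPO plus a digit, KPNA, KPNB, XPO plus a digit or TNPO were taken, together with RANBP1, RANBP2, RANGAP1, RAN, TPR, SEH1L, AAAS, CSE1L and RCC1, and without XPO5 and XPOT. This gave 51 of 12609 single-name genes, and the mean of both libraries reached 1 RPKM, the minimum used for the comparison, in all 51. RPKM are reads normalized to the length of the transcript and the mapped reads of each library, so levels of different genes can be set side by side. 1 library came from cells labelled MYOCD Knockdown, with the sample title MYOCD-/-, and 1 from cells labelled wild type. MYOCD encodes myocardin, a coactivator of serum response factor. For both libraries the treatment label gives doxycycline, 72 h, the series design describes wild type cells as untreated, and the sources used here do not say how the knockdown was made or whether a clone was used. With 1 library a group there was no test, no replicate error and no p-value, and every difference is one between 2 libraries. No counts were given, so the depth is unknown.

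The nuclear pore is a ring-shaped channel through the nuclear envelope, built of nucleoporins arranged in a scaffold, a central channel of flexible repeats rich in phenylalanine and glycine (FG), cytoplasmic filaments and a nuclear basket. Importins and exportins carry cargo through it. They are steered by the GTPase RAN, which is kept in its GTP form inside the nucleus by RCC1 and is turned to its GDP form outside it by RANGAP1. Fast-growing carcinoma lines are known for strong expression of several transport receptors, among them KPNA2, CSE1L and XPO1.

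The targeted gene had 0.400 RPKM in the knockdown library, against 0.881 RPKM in the wild type library, both near the lowest values in the table. The 11 listed epithelial and A549 markers were all found, at levels from 2.15 RPKM for EPCAM to 2374 RPKM for ALDH1A1 in the knockdown library, and from 2.24 to 2370 RPKM for the same genes in the wild type library. EPCAM, an epithelial adhesion protein, was thus low in both libraries, and the cadherin CDH1 had 22.5 RPKM in the knockdown library and 23.8 in the wild type library. The keratin KRT7 had 1456 RPKM in the knockdown library and 1395 in the wild type library, and the aldo-keto reductase AKR1B10 had 565 in the knockdown library and 451 in the wild type library. The related AKR1C2 had 256 RPKM in the knockdown library and 329 in the wild type library, and AKR1C1 had 52.8 in the knockdown library and 59.5 in the wild type library. Of 7 listed alveolar genes only NAPSA was found, with 0.771 RPKM in the knockdown library, against 1.27 in the wild type library. Leukocyte and fibroblast lists had 1 found gene each, at no more than 3.30 RPKM in the knockdown library and 3.13 in the wild type library, and none of the 5 listed endothelial genes was found. Summed RPKM over all loci came to 1.17e+06 in the knockdown library and 1.02e+06 in the wild type library, and over single-name genes to 5.70e+05 in both.

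Nuclear pore and transport genes differed little between the libraries, with most of them slightly higher in the knockdown library. Of the 51 genes, 39 (76.5%) were higher, against 52.1% of the 11841 genes that reached the same minimum. Their median log2 difference was 0.13, against 0.011 over all genes, and the single values ran from -0.14 for SEH1L to 0.33 for KPNA1. Each difference is the log2 ratio of knockdown to wild type RPKM after a pseudocount of 1 was added to both, which shrinks the difference of genes with low values. On that scale KPNA1 alone was at least 25% higher, and 0 genes were at least 20% lower, the same fold downward, while 8.00% of all genes were that much higher and 10.7% that much lower. No gene of the list reached 1.5-fold, a size reached upward by 1.63% and downward by 3.25% of all genes, or 2-fold, reached by 0.625% and 0.735%. The direction of the median rests on the scaling. With both libraries set to the same summed RPKM over all loci, the median of the list was -0.068 and that of all genes -0.17. Then 12 of the 51 genes were higher, a share similar to the 21.9% of the 11841 genes. With that scaling the median of every role group except the cytoplasmic filaments was below 0. Higher and lower in what follows therefore refer to the deposited scale, on which 52.1% of all genes were higher.

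**Figure D1:**
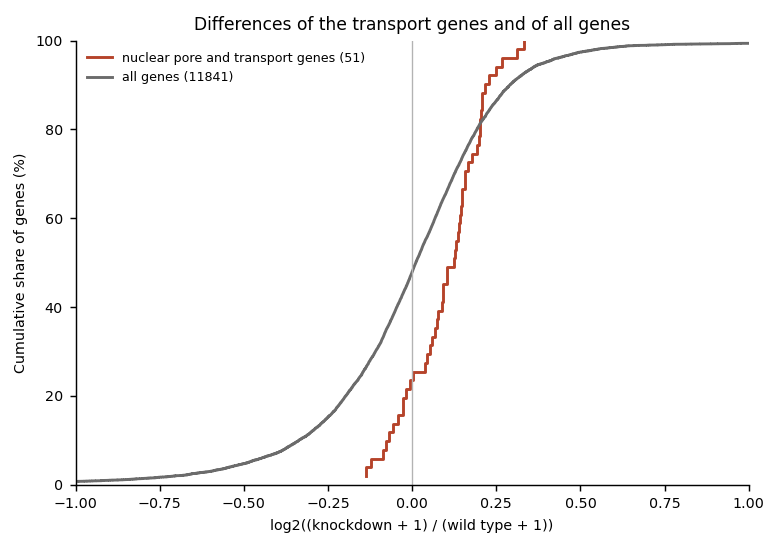
Cumulative share of genes (y axis, %) up to each log2 difference (x axis) for the 51 nuclear pore and transport genes (red) and all 11841 compared genes (grey). The red curve is steep, starts at -0.14 and ends at 0.33, and at a difference of 0 it lies below the grey curve.

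Levels covered a wide range and kept nearly the same order. RAN, the GTPase itself, was highest, with 608 RPKM in the knockdown library and 591 in the wild type library. KPNA2, an importin alpha, came next with 369 RPKM in the knockdown library and 346 in the wild type library. These genes made up 33.1% of the summed RPKM of the list in the knockdown library and 33.8% in the wild type library. In all, 7 genes were above 100 RPKM in both libraries, namely RAN, KPNA2, KPNB1, RANBP1, CSE1L, XPO1 and IPO7. Only 4 of the 51, KPNA5, XPO4, IPO13 and NUP62CL, were below 10 RPKM in either library. The summed level was 2955 RPKM in the knockdown library, against 2768 in the wild type library, a difference of 6.77%. Spearman's rho between the libraries was 0.987 over the 51 genes, a description across genes, which are not independent replicates. 18 genes held the same rank, and no gene moved by more than 6 places.

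**Figure D2:**
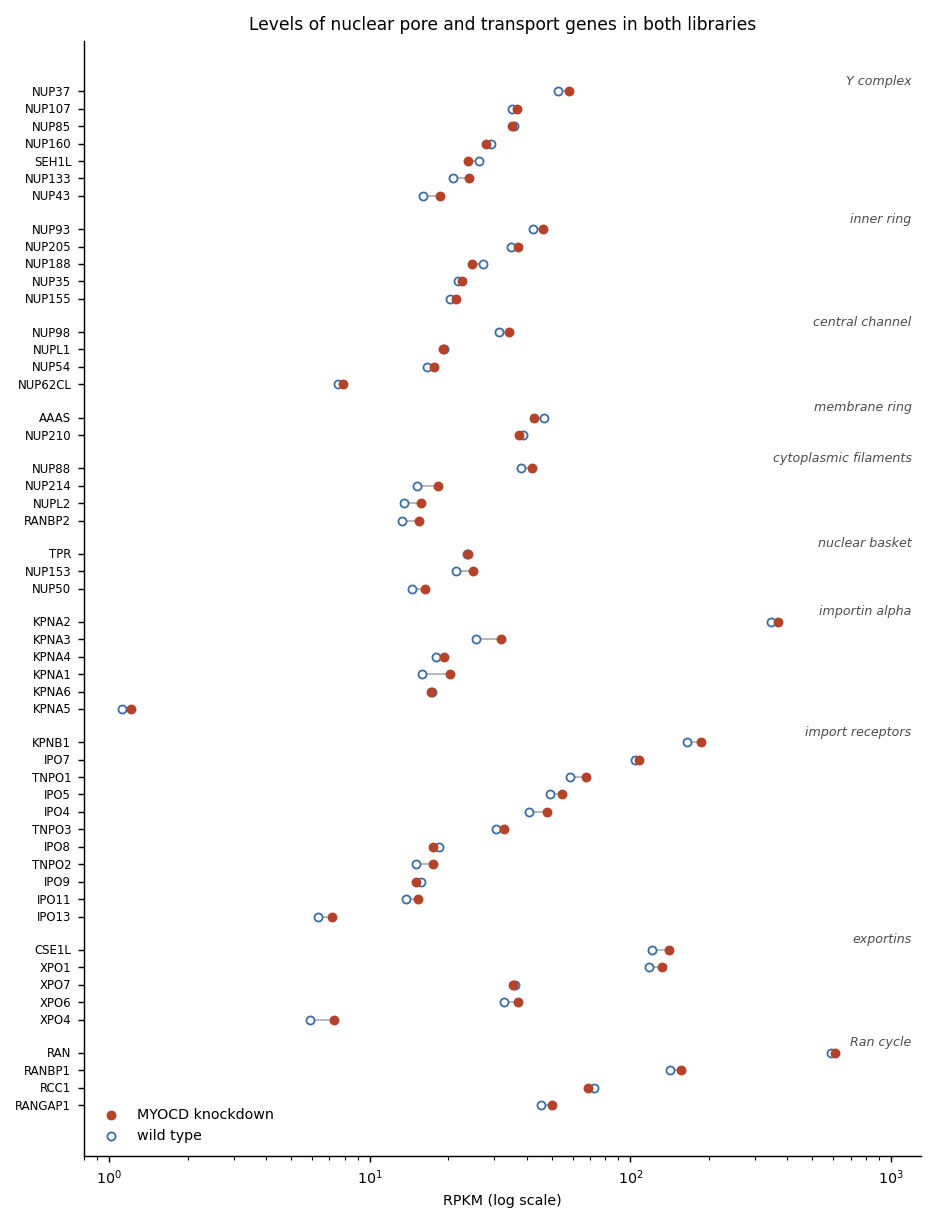
RPKM (x axis, log scale) of each gene in the knockdown library (filled red) and the wild type library (open blue), in groups by role and ordered by level within a group. Both points of a gene lie close together over the whole range, with the widest relative gaps at KPNA1 and KPNA3.

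The promoters of the extreme genes are shown because they stand at both ends of the list, as RefSeq windows on GRCh38.p14 from 250 bases before to 50 after a start. Capitals mark matches, on either strand, to the words searched below. KPNA1 (chr3:122514890-122515189, minus strand) and KPNA3 (chr13:49792633-49792932, minus strand) had the largest upward differences. NUP188 (chr9:128947449-128947748, plus strand) and SEH1L (chr18:12947761-12948060, plus strand) had the largest downward ones.
KPNA1: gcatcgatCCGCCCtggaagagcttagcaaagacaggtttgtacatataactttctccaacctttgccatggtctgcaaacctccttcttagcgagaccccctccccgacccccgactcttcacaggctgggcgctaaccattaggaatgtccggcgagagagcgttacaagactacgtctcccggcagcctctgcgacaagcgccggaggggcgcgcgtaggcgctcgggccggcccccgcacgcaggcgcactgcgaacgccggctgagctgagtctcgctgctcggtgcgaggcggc
KPNA3: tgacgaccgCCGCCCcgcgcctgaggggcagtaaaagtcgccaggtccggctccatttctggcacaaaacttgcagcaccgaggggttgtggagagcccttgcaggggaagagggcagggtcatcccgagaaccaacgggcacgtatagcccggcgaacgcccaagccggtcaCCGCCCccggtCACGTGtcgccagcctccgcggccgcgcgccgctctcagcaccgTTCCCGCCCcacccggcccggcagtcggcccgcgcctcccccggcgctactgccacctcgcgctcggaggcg
NUP188: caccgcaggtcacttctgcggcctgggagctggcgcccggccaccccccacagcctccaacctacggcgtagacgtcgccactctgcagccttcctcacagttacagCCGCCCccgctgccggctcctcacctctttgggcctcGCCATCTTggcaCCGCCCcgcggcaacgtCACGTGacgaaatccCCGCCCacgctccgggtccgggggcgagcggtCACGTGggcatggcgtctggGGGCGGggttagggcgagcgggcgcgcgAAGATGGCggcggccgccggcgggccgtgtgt
SEH1L: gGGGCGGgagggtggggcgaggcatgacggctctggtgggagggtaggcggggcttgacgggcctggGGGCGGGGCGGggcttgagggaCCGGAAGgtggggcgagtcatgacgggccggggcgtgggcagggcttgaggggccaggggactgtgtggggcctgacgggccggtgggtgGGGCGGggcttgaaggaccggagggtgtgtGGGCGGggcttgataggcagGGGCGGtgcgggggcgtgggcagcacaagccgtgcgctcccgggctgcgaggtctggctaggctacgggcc

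All of these windows held more CG dinucleotides than the median over all 35116 windows, with 30, 38, 38 and 25 of them in the order shown. RefSeq windows were matched for 45 of the 51 genes, 58 windows in all, some of them overlapping. Their median was 26 CG dinucleotides, the same as in 13487 windows of genes expressed here and above the 14 over all 35116 windows. The CArG box, which serum response factor binds, was in 0 of the 58 windows, and in 1.08% of windows of expressed genes. The CCAAT word was in 44.8% of the windows of the list, against 34.6% of expressed windows, and the ETS word CCGGAAG in 24.1% against 17.3%. The E-box CACGTG was in 15.5% against 9.53%, the E2F word GGCGGGAA in 10.3% against 4.86%, and the YY1 word AAGATGGC in 10.3% against 5.03%. The NRF1 word was in 12.1% against 10.3%, TATAAA in 6.90% against 5.97%, and the GC box GGGCGG in 51.7% against 67.2%. The GC box and the E2F word can overlap, as in KPNA3. Matches are descriptions of letters, not binding sites. Over the 8 words with a match, the median log2 difference of genes with a match ran from 0.066 for YY1 to 0.15 for the E-box, and that of genes without one from 0.090 for the GC box to 0.13 for YY1, ETS and NRF1, among others.

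The Y complex is the outer scaffold of the pore, present as rings on both faces. In the knockdown library 4 of its 7 genes in the list (57.1%) were higher, near the 52.1% of all genes. NUP43, one of its beta-propeller subunits, had 18.5 RPKM in the knockdown and 16.0 in the wild type, 16.2% higher. NUP133, at the tip of the complex, had 24.1 RPKM in the knockdown and 20.9 in the wild type. NUP37 had 58.2 RPKM in the knockdown and 52.9 in the wild type, the highest level among these 7 genes. NUP107, the partner that NUP133 binds, had 36.9 in the knockdown and 35.0 in the wild type. The other 3 were lower. SEH1L, also a subunit of the GATOR2 complex in nutrient sensing, had 23.8 RPKM in the knockdown and 26.3 in the wild type, a difference of -9.43% (log2 difference -0.14). NUP160 had 27.8 RPKM in the knockdown and 29.2 in the wild type, and NUP85, which SEH1L binds, had 35.2 in the knockdown and 35.9 in the wild type. The group's median was 0.074, and its members lay on both sides of 0. The subunits SEC13 and AHCTF1, which the rule does not take, are named after their values were seen, and both were higher. SEC13 had 74.2 RPKM in the knockdown and 68.1 in the wild type, and AHCTF1 had 23.6 in the knockdown and 21.8 in the wild type.

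The inner ring lines the channel wall and ties the scaffold together. NUP93, which anchors the ring's other subunits, had 46.2 RPKM in the knockdown and 42.2 in the wild type. The large and structurally related NUP188 and NUP205 went apart: NUP188 had 24.6 RPKM in the knockdown and 27.2 in the wild type, while NUP205 had 37.0 in the knockdown and 34.7 in the wild type. NUP155 had 21.4 RPKM in the knockdown and 20.3 in the wild type, and NUP35, a membrane-binding subunit, had 22.5 in the knockdown and 21.9 in the wild type. Of the 5 genes 4 were higher, by at most 9.41%, with a median log2 difference of 0.076.

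FG nucleoporins of the central channel form the selective barrier. NUP98, which also serves outside the pore in transcription, had 34.2 RPKM in the knockdown and 31.3 in the wild type. NUP54 had 17.7 RPKM in the knockdown and 16.5 in the wild type, and its partner NUPL1 (now NUP58) had 19.1 in the knockdown and 19.2 in the wild type. NUP62, the other partner of these proteins, was read only in a locus shared with IL4I1, outside the rule, and that locus had 50.2 RPKM in the knockdown and 44.1 in the wild type. NUP62CL, a gene related to NUP62, had 7.92 RPKM in the knockdown and 7.56 in the wild type. The median of the 4 genes was 0.075, close to that of both scaffold groups.

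In the membrane ring both genes of the list were lower. NUP210, the transmembrane nucleoporin gp210, had 37.5 RPKM in the knockdown and 38.6 in the wild type. AAAS, which encodes ALADIN and is mutated in triple A syndrome, had 42.6 RPKM in the knockdown and 46.4 in the wild type, a difference of -8.25% (log2 difference -0.12). This was the only group of the 10 with a median below 0, at -0.082 over 2 genes. Transmembrane nucleoporins that the rule does not take stood on the other side of 0: TMEM48 (now NDC1), which recruits ALADIN to the pore and is named after its values were seen, had 28.3 RPKM in the knockdown and 23.3 in the wild type, and POM121 had 10.1 in the knockdown and 8.05 in the wild type.

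All 4 genes of the list in the cytoplasmic filaments were higher, and this group had the highest median, 0.20. NUP214, an FG nucleoporin fused in some leukaemias, had 18.2 RPKM in the knockdown and 15.2 in the wild type, 20.1% higher. RANBP2, the giant nucleoporin that holds SUMO-modified RANGAP1 at the pore, had 15.5 RPKM in the knockdown and 13.3 in the wild type; its sequence is shared in part with the RGPD gene family, so its value is uncertain. NUPL2 (now NUP42), a partner of the mRNA export factor GLE1, had 15.7 RPKM in the knockdown and 13.5 in the wild type. GLE1 itself, which the rule does not take, was lower, with a log2 difference of -0.12. NUP88, which pairs with NUP214, had 42.0 RPKM in the knockdown and 38.0 in the wild type. In the nuclear basket all 3 genes were higher. NUP153, an FG nucleoporin that binds the lamina, had 24.9 RPKM in the knockdown and 21.5 in the wild type, and NUP50, which helps importin alpha release its cargo, had 16.2 in the knockdown and 14.5 in the wild type. TPR, the coiled-coil protein of the basket, was nearly the same, with 23.8 RPKM in the knockdown and 23.7 in the wild type (log2 difference 0.0025).

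**Figure D3:**
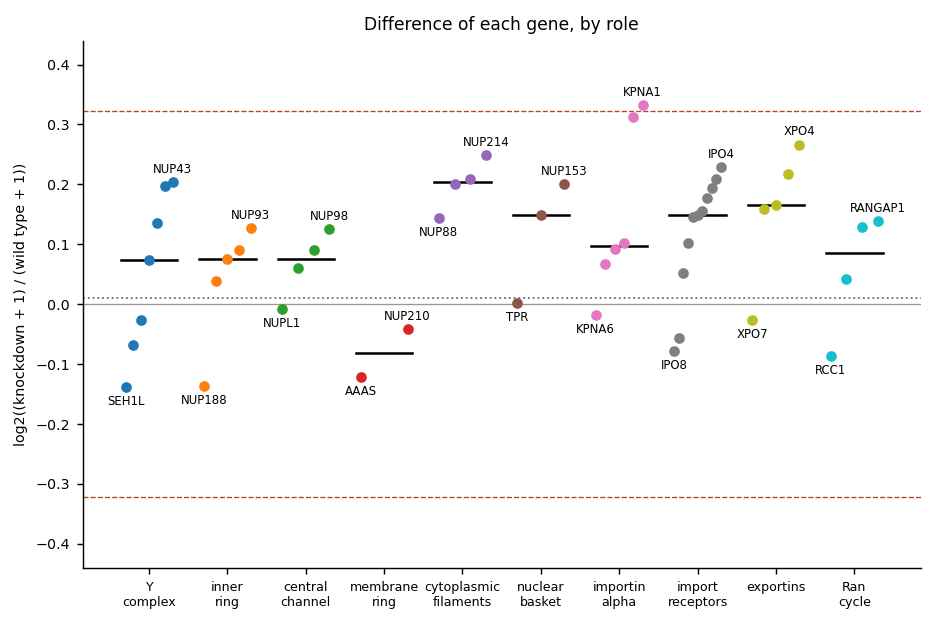
Log2 difference (y axis) of each gene, one point each, in groups by role, with the group median as a black bar, the median of all genes as a dotted line and the fold of 25% higher or 20% lower as dashed red lines. The highest and lowest gene of each group is named; KPNA1 alone lies beyond a dashed line, and the cytoplasmic filaments have the highest bar.

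Importin alpha proteins bind nuclear localization signals and join KPNB1. KPNA1 (chr3:122421949-122514945 on GRCh38 by GENCODE release 29, minus strand) had 20.3 RPKM in the knockdown and 15.9 in the wild type, 27.5% higher (log2 difference 0.33). It exceeded 92.6% of all genes in log2 difference. Its closest relatives KPNA5 and KPNA6 did not show such a gap. KPNA6 had 17.2 RPKM in the knockdown and 17.4 in the wild type, and KPNA5, the lowest gene of the list, had 1.22 in the knockdown and 1.12 in the wild type. KPNA3 (chr13:49699307-49792921, minus strand) had 32.0 RPKM in the knockdown and 25.6 in the wild type, 25.1% higher on the deposited scale and just under that with the pseudocount. Its near relative KPNA4 had 19.3 RPKM in the knockdown and 18.0 in the wild type. KPNA2 made up 80.4% of the summed importin alpha level in the knockdown library and 81.6% in the wild type. Without it, the other 5 genes summed to 90.0 RPKM in the knockdown and 78.0 in the wild type.

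Import receptors of the importin beta family bind cargo and FG repeats directly, and 9 of 11 were higher. KPNB1, importin beta itself, had 186 RPKM in the knockdown and 165 in the wild type, 13.1% higher. IPO4, a carrier of histones and ribosomal proteins, had 47.9 RPKM in the knockdown and 40.7 in the wild type, the largest difference of this group (log2 difference 0.23). Both close transportins were higher: TNPO1, which carries hnRNP proteins, had 67.5 RPKM in the knockdown and 58.9 in the wild type, and TNPO2 had 17.5 in the knockdown and 15.0 in the wild type. TNPO3, a carrier of splicing factors with serine and arginine repeats, had 32.8 RPKM in the knockdown and 30.5 in the wild type.

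Among the other importins, IPO5 had 54.8 RPKM in the knockdown and 49.3 in the wild type. The relatives IPO7 and IPO8 stood on opposite sides of 0, with IPO7 at 108 RPKM in the knockdown and 104 in the wild type, and IPO8 at 17.4 in the knockdown and 18.5 in the wild type. IPO9 was lower, with 15.1 RPKM in the knockdown and 15.7 in the wild type. IPO11 had 15.4 RPKM in the knockdown and 13.8 in the wild type. IPO13, a receptor that works in both directions, had 7.19 in the knockdown and 6.35 in the wild type.

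Exportins carry cargo out together with RAN in its GTP form, and 4 of 5 were higher. XPO1 (CRM1), the receptor for leucine-rich export signals and the target of selinexor, had 132 RPKM in the knockdown and 118 in the wild type. CSE1L, which returns importin alpha to the cytoplasm, had 140 RPKM in the knockdown and 121 in the wild type, 16.4% higher. XPO4 had 7.27 RPKM in the knockdown and 5.87 in the wild type, 23.7% higher at a low level. XPO6, the exporter of actin with profilin, had 36.9 RPKM in the knockdown and 32.8 in the wild type, and XPO7 had 35.3 in the knockdown and 36.0 in the wild type. The group's median was 0.17, the second highest of the 10.

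The RAN cycle gives transport its direction, and 3 of its 4 genes were higher. RAN, at 608 RPKM in the knockdown and 591 in the wild type, was 3.0% higher. RANBP1, which helps RANGAP1 to act, had 156 RPKM in the knockdown and 142 in the wild type, and RANGAP1 had 50.1 in the knockdown and 45.4 in the wild type. RCC1, the nuclear exchange factor, was lower, with 68.6 RPKM in the knockdown and 72.8 in the wild type. RCC1 holds the small nucleolar RNA genes SNORA73A and SNORA73B on its own strand. In all, 8 of the 51 genes held a small nucleolar RNA, small Cajal body RNA or microRNA gene, with a microRNA gene in TNPO1, RANGAP1 and IPO9, so their values may include reads of those RNAs. These 8 had a median log2 difference of 0.12, against 0.13 in the other 43.

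Composition of the transcripts moved with the difference over all genes. All genes with a coding transcript in GENCODE release 29 were split into 10 bins by GC content of their longest coding transcript. Their median log2 difference was 0.070 in the bin lowest in GC and -0.15 in the highest bin. The 51 genes had a median GC content of 43.3%, against 48.6% over 10995 genes, and a median transcript length of 5207 bases, against 3454. After the median of genes in the same bin of GC content was subtracted, the median of the list was 0.065 and 32 of the 51 genes were above 0. The same step with transcript length left a median of 0.094 and with level 0.093, with 38 genes above 0 in each. Subtracting bin medians leaves about as many of all genes above 0 as below it. Over the 10995 genes, 49.98% were above 0 after the step with GC content, 49.99% with length and 49.98% with level. The part of GC content, length and level in the differences of the list was not tested. Within the list Spearman's rho between the difference and GC content was -0.077, as a description over 51 genes that share their libraries, against -0.28 over all genes.

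**Figure D4:**
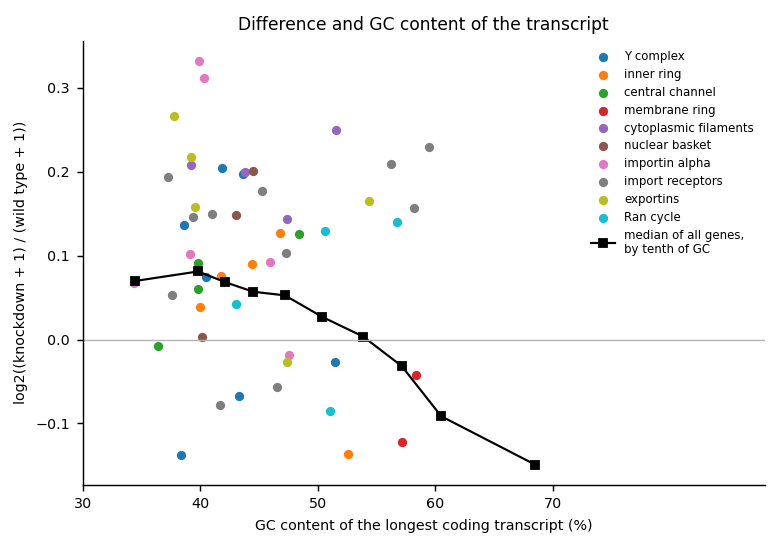
Log2 difference (y axis) against the GC content of the longest coding transcript (x axis, %) for the 51 genes, coloured by role, with the median of all genes in each of 10 bins of GC content as black squares. The black line starts at 0.070, is highest at 0.081 in the next bin and falls to -0.15 at high GC content, and most coloured points lie above it, among them IPO4 at 59.4% GC.

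The bases AATATGC were looked for in the longest annotated 3′ UTR of each gene, since an earlier search of these libraries had picked this word among lower genes, so it is no independent evidence of a direction. It was present in 10 of the 51 genes (19.6%), against 11.5% of 10978 genes with an annotated 3′ UTR. Carriers were SEH1L, IPO8, IPO9, NUPL1, RAN, KPNA5, NUP107, KPNA4, NUP93 and KPNB1. Their median log2 difference was 0.055, against 0.14 in the other 41 genes, and over all genes the medians were -0.031 with the word and 0.017 without it. Of the 10 carriers, 4 were lower in the knockdown library, and of the other 41 genes, 8. Over all genes, 703 of 1263 with the word and 4533 of 9715 without it were lower. The 3′ UTRs of carriers can be long, reaching 9543 bases in KPNA5, and longer UTRs hold any word more often. The part of the word in these differences was not tested.

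Related genes that the rule does not take were described by lists, also chosen with earlier results known. Their counts stand beside the 52.1% of all genes that were higher. Of 7 further pore genes, 6 were higher, with a median of 0.12. POM121C had 9.56 RPKM in the knockdown and 7.73 in the wild type, and shares nearly all of its sequence with POM121, so reads may be split between them. RAE1, an mRNA export factor at the pore, had 31.2 RPKM in the knockdown and 29.8 in the wild type, and GLE1 was lower, with 22.3 in the knockdown and 24.3 in the wild type. Of 22 mRNA export genes found, 13 (59.1%) were higher, near the share of all genes, with a median of 0.072. NCBP1, the large subunit of the nuclear cap-binding complex, had 28.8 RPKM in the knockdown and 21.6 in the wild type (log2 difference 0.40), the only gene of this list at least 25% higher with the pseudocount added. The helicase DDX19A, which works at the cytoplasmic filaments, had 16.2 RPKM in the knockdown and 13.0 in the wild type, 25.1% higher without the pseudocount. SARNP had 37.0 RPKM in the knockdown and 45.0 in the wild type, and DDX39A 39.6 in the knockdown and 42.8 in the wild type.

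RAN regulators and adaptors had 6 of 8 genes higher and a median of 0.084. RANBP6, a relative of IPO5, had 10.6 RPKM in the knockdown and 8.54 in the wild type, and C11orf73 (now HIKESHI), the import receptor for HSP70, had 36.5 in the knockdown and 31.7 in the wild type. RANGRF had 30.9 RPKM in the knockdown and 35.8 in the wild type, and RANBP3, a cofactor of XPO1, had 12.7 in the knockdown and 13.5 in the wild type. In the SUMO pathway 4 of 8 genes were higher and the median was -0.013. SUMO3 had 40.9 RPKM in the knockdown and 33.5 in the wild type, while SUMO2 had 333 in the knockdown and 352 in the wild type. The proteases SENP1 and SENP2 stood on opposite sides, with SENP1 at 10.2 RPKM in the knockdown and 8.87 in the wild type, and SENP2 at 6.92 in the knockdown and 7.91 in the wild type.

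Of 16 genes of the lamina and nuclear membrane 8 were higher, with a median of 0.045. With the pseudocount, 2 of them were at least 25% higher and 3 at least 20% lower, against 8.00% and 10.7% of all genes. Their SD of 0.26 log2 was close to the 0.27 of protein-coding genes free of short RNA genes, while that of the nuclear pore and transport genes was 0.12. Over all 11841 genes the SD was 0.62. These SDs were not matched for level, and the 51 genes had a median level of 28.5 RPKM, against 13.0 over 10995 genes. SUN1 and SUN2, which link the lamina to the cytoskeleton, were both lower: SUN1 had 37.7 RPKM in the knockdown and 48.3 in the wild type, and SUN2 had 19.1 in the knockdown and 24.5 in the wild type. The torsin TOR1A was higher, with 34.1 RPKM in the knockdown and 26.3 in the wild type. The lamin B receptor LBR had 46.4 RPKM in the knockdown and 39.2 in the wild type, 18.5% higher and so short of 25%. Besides SUN1, SUN2 and TOR1A, the genes past the fold were SYNE2 and SYNE1, named after their values were seen. SYNE2 had 3.83 RPKM in the knockdown and 5.63 in the wild type, and SYNE1 had 1.93 in the knockdown and 1.29 in the wild type. Proliferation genes had 4 of 8 higher and a median of -0.0010. MKI67 had 38.6 RPKM in the knockdown and 41.3 in the wild type, MCM2 had 37.4 in the knockdown and 39.7 in the wild type, MCM6 had 50.3 in the knockdown and 47.8 in the wild type, and TYMS had 70.9 in the knockdown and 63.8 in the wild type.

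**Figure D5:**
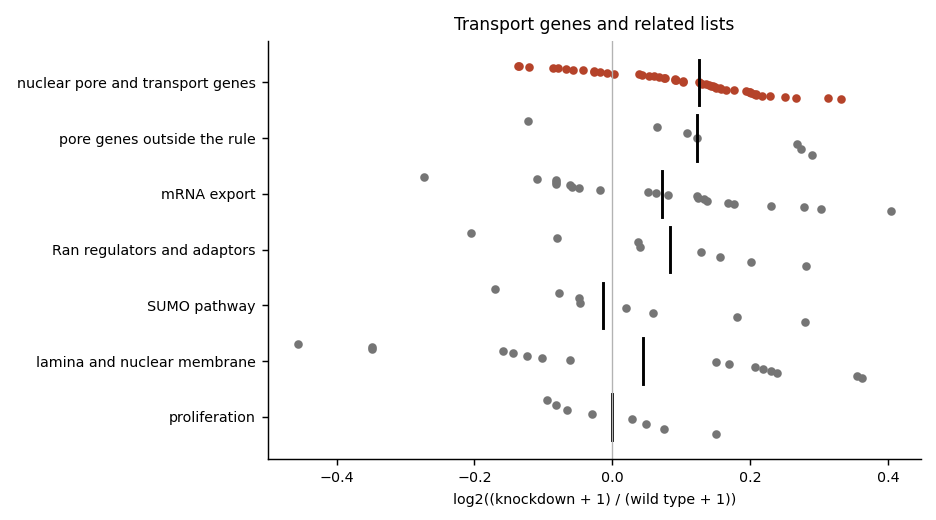
Log2 difference (x axis) of each gene, one point each, for the 51 nuclear pore and transport genes (red) and 6 related lists (grey), with medians as black bars. The red points lie between -0.14 and 0.33, while lamina and nuclear membrane genes reach from -0.46 to 0.36.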

How the data were processed

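RNA-seq values of 1 MYOCD knockdown and 1 wild type library of A549 cells were used. The deposited values are RPKM computed by the authors, and TopHat2 2.0.10, Cufflinks 2.2.1 GRCh38.p12 and BDGP5 (a fly build) are named, with no role, per the submitters' processing notes. The sources used here give neither the annotation nor read filters or strand use. Depth is unknown: no steps of single reads were found, since a window of 0.01 held at most 29 log2 ratios of 2212 loci low in both libraries (under 2 RPKM). Of 14952 loci, 1909 with no name, 308 with several names and 21 with names changed into dates were left out, and lines of 1 name were summed. The 11841 genes whose mean reached 1 RPKM were compared, with a pseudocount of 1. Gene types, lengths, GC content and UTRs came from GENCODE release 29 on GRCh38, current symbols and promoters from RefSeq on GRCh38.p14.

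Every gene of the list is named. In each related list the 2 highest and 2 lowest genes whose mean reached 5 RPKM are named. The genes and lists were chosen with earlier results of these data known. No test was run, as each group has 1 library, and differences of 25% upward or 20% downward, 1.5-fold and 2-fold served as size rules. Alternatives were 2 other pseudocounts, 2 other filters on low values, 3 scalings, the highest line of each name and protein-coding genes alone, and 4 were added after seeing the data. Python 3.11.15, numpy 2.4.6, pandas 2.3.3 and matplotlib 3.10.9 were used. The fold calculation was tested on simulated 2-fold changes, larger than any difference in the list, so that test does not cover differences as small as those described.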

Additional observations from a re-analysis of the deposited data

How the results depend on the processing

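No paired analysis was possible because each group has 1 library, so no replicate could be left out either. A median counts as moved when it shifts by over 0.1 log2, a limit not far below the list's own median of 0.13. In 12 of the 13 alternatives, all but the rescaling to equal sums over all loci, the median log2 difference of the list lay between 0.065 and 0.14. Between 32 and 40 of its genes were higher. These counts are out of 51, except 33 of 43 among protein-coding genes free of short RNA genes and 38 of 50 with a mean of at least 5 RPKM. Over all genes the share above 0 ran from 45.0% with equal upper quartiles, where 36 of the 51 were higher, to 54.1% with a mean of at least 5 RPKM. Several of these alternatives could hardly change the count of higher genes. A pseudocount cannot change which library is higher. All 51 genes reached 1 RPKM and had 1 line each, so dropping the filter or taking the highest line left them unchanged. Equal medians multiplied the knockdown values by only 0.9998. In each of these settings 39 genes were higher, which says nothing about how firm the direction is. Subtracting medians within 10 bins of length, GC content or level, and rescaling on protein-coding genes free of short RNA genes, were chosen after seeing the data.

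Rescaling to the same summed RPKM over all loci multiplies the knockdown values by 0.871 and gave medians of -0.068 for the 51 genes, -0.12 for the Y complex, -0.11 for the inner ring, -0.11 for the central channel, -0.28 for the membrane ring, 0.018 for the cytoplasmic filaments, -0.038 for the nuclear basket, -0.062 for importin alpha, -0.040 for import receptors, -0.028 for exportins and -0.11 for the RAN cycle. It gave -0.073 for further pore genes, -0.11 for mRNA export, -0.094 for RAN regulators, -0.21 for the SUMO pathway, -0.15 for the lamina and -0.20 for proliferation. Of the 51 genes 12 were then higher, against 21.9% of all genes, and 0 were at least 25% higher and 2 at least 20% lower. Over all genes 324 and 2977 passed these upward and downward limits, 105 and 773 passed 1.5-fold, and 138 passed 2-fold downward. The sums over single-name genes were nearly equal before this step, so the unequal totals lie in loci outside the comparison.

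With the pseudocount of 1, the 1 gene at least 25% higher, KPNA1, became 0 genes with a pseudocount of 5, with equal upper quartiles and with each subtraction by bin, and 2 genes with equal sums over protein-coding genes free of short RNA genes. Over all genes, 193 and 385 passed 1.5-fold upward and downward. These were 335 and 609 with a pseudocount of 0.1, and 92 and 123 with one of 5. With a mean of at least 5 RPKM, reached by 9020 genes, 209 passed downward, and 752 were at least 20% lower. With a pseudocount of 5, 401 were at least 25% higher and 602 at least 20% lower. Upward counts at 1.5-fold were 94 in protein-coding genes free of short RNA genes, and 96, 92 and 116 after subtraction by length, GC content and level, with 256 downward for GC content. At 2-fold, 74 genes were higher and 87 lower. The lower ones were 187 and 53 with pseudocounts of 0.1 and 5. In protein-coding genes free of short RNA genes 11 were higher and 38 lower. After subtraction they were 17 and 46 (length), 17 and 37 (GC content) and 18 and 42 (level), again over fewer genes. Without subtraction, 17 genes lacking AATATGC were higher and 30 lower, and 0 and 11 carrying it. The lamina median was 0.15 when limited to those protein-coding genes. The causes were not tested, and the unknown depth limits how small a difference can be read.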
